A study of Aedes albopictus with 6 samples.

Results

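Long nuclear tags are the listed small RNAs of 31 to 33 nt from the Asian tiger mosquito, Aedes albopictus, that lie on any sequence other than the mitochondrial one. A tag is a small RNA read sequence with 1 position and 1 count per sex. Length was taken as end minus start plus 1, and 543 of the 22773 listed tags met both conditions, 2.43% of the 22304 nuclear ones. No listed tag was longer than 33 nt or shorter than 24 nt, so these are the upper edge of the table. The series compared virgin females with males, all whole bodies of adults 2 days after emergence, with 3 libraries per sex in the labels. The deposited table gives a single count column for each sex, so there is no replicate check, no test was run, and each difference is one between 2 columns. Levels are given as TPM, which here is the count divided by its column's total and put on a common scale, without regard to tag length. Brackets give 95% intervals that cover counting error only, and for a share of tags they take tags as independent.

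PIWI-interacting RNAs (piRNAs) guide PIWI proteins to transposon and other transcripts, and in animals they are best known from the germ line. They are cut from long single-stranded precursors without Dicer, and their 3′ ends are often trimmed to the edge of the PIWI protein and then methylated, so piRNAs of 1 origin can differ by a few bases in length. In Aedes mosquitoes the PIWI family is expanded and piRNAs are also made in the body outside the gonads. The table gives no strand, so a shared start or a shared end of 2 tags can be the 5′ or the 3′ end of the RNA. Tags are named by position, since the files do not pair them with gene or piRNA names.

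The depth, worked out from TPM over count, was 2677063 counts for the female and 2060047 for the male column. The table holds only tags at least 2-fold apart between the sexes and with at least 6 counts in both columns together. A count of 1 does not occur, so a listed 0 can stand for 0 or 1. Because the list was chosen on the same samples, the directions below describe the list. Other scalings lowered every male over female ratio by one amount, on the log2 scale by -0.10 when the listed tags alone gave the totals, -0.42 for TMM factors and -1.17 for RLE factors. Under the RLE shift any ratio between 1 and 2.26 turned to females, single tags and sums alike, and under the TMM shift any ratio between 1 and 1.33. Whole bodies were measured, so fewer cells that make a tag and less of it per cell cannot be told apart.

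Long nuclear tags were more evenly divided between the sexes than the table as a whole, and their summed level was somewhat higher in males. Of the 543 tags, 256 were higher in males and 287 in females. The male-higher share was 47.1% (42.9 to 51.4), beside a background of 31.7% over all listed tags and 29.9% over the nuclear tags of 24 to 30 nt. Together they held 8002 female and 7919 male counts, a summed TPM of 2989 in females and 3844 in males. The ratio of these sums was 1.29 (1.25 to 1.33), while the nuclear tags of 24 to 30 nt stood at 0.997. The direction of the sum rested on the scaling, since it became 0.964 with TMM and 0.570 with RLE factors. The 2 most counted long tags, both higher in females, held 25.0% of the female counts, and without them the ratio was 1.57. Because every listed tag is at least 2-fold apart, the TMM shift could turn no single tag, and the RLE shift turned the 12 male-higher long tags with ratios below 2.26.

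Most long tags had few counts. The median sum of both counts was 9, 138 tags reached 20 counts and 26 reached 100. Of the 543, 228 were listed in females alone, or 42.0% beside a background of 55.7%. Another 129 were listed in males alone, or 23.8% beside 17.0%. The other 186 had counts in both sexes, 127 higher in males with a median fold of 4.22 and 59 higher in females with a median fold of 3.72. Over all listed tags with counts in both sexes these medians were 4.26 and 3.85. The well-counted tags leaned to males, with 81 male-higher and 22 female-higher among the 103 that reached a TPM of 10 in 1 sex or both, or 78.6%, beside 63.1% over all listed tags at that level.

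**Figure D1:**
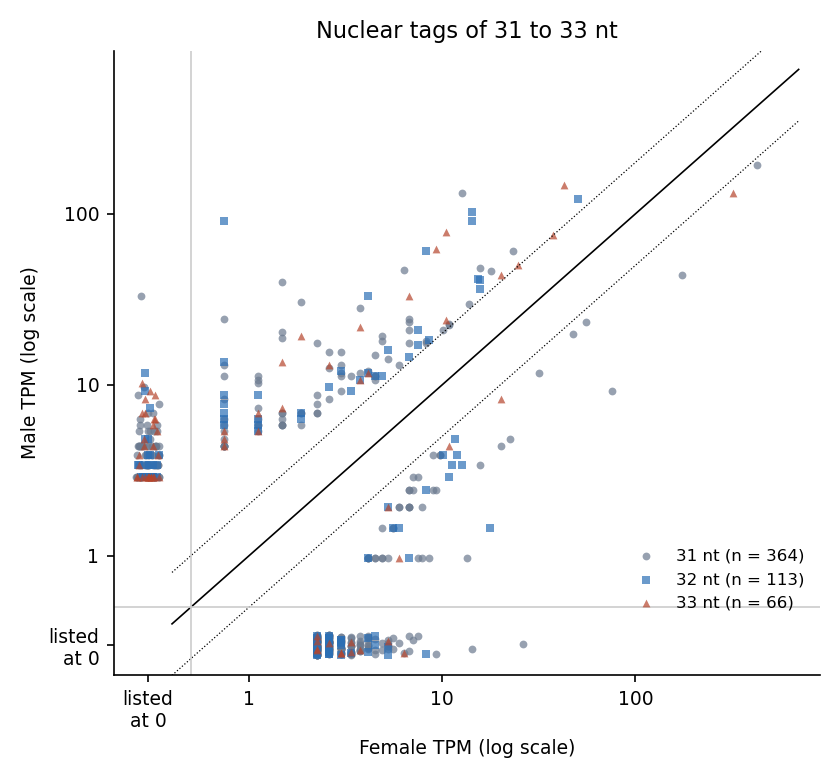
Female TPM (x axis, log scale) against male TPM (y axis, log scale) of each of the 543 long nuclear tags, with 1 point per tag and the marker giving its length. Points in the outer strips are listed at 0 in that sex and spread at random within the strip, the solid line is equality and the dotted lines are 2-fold differences. The gap between the dotted lines is the filter of the list, and the 2 tags farthest to the right are the female-higher ones with 1143 and 855 female counts.

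The male-higher share was higher at both ends of the size range than in its middle. The male-higher share was lowest at 27 nt, at 24.6% (23.5 to 25.7), and was 26.1% at 28 nt, 31.9% at 29 nt and 34.5% (31.6 to 37.4) at 30 nt, just outside the long set. Just inside it, 152 of 364 tags of 31 nt were male-higher, or 41.8% (36.6 to 47.0). At 32 nt, 55 of 113 were male-higher, or 48.7% (39.2 to 58.3). At 33 nt it was 49 of 66, or 74.2% (62.0 to 84.2). The shortest tags also leaned more to males than those of the middle, with 40.8% (38.5 to 43.1) at 24 nt. Summed levels did not follow the same order, as the male over female ratio was 0.993 (0.953 to 1.04) at 31 nt, 2.13 (1.99 to 2.29) at 32 nt and 1.58 (1.47 to 1.69) at 33 nt. A single region, on NW_021837267.1, held 15 of the 66 tags of 33 nt, all male-higher. Without it 34 of 51 were male-higher, or 66.7% (52.1 to 79.2), and the shares at 31 and 32 nt were 39.9% and 45.3%. Of those 51, 5 each lay in the regions at NW_021838153.1 167912688 and NW_021838798.1 2994086, and 4 in that at NW_021839020.1 67138175. Long tags in these regions were mostly or all male-higher and many overlap. The high share at 33 nt thus rests in part on a few places, and shares without these regions were not worked out.

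**Figure D2:**
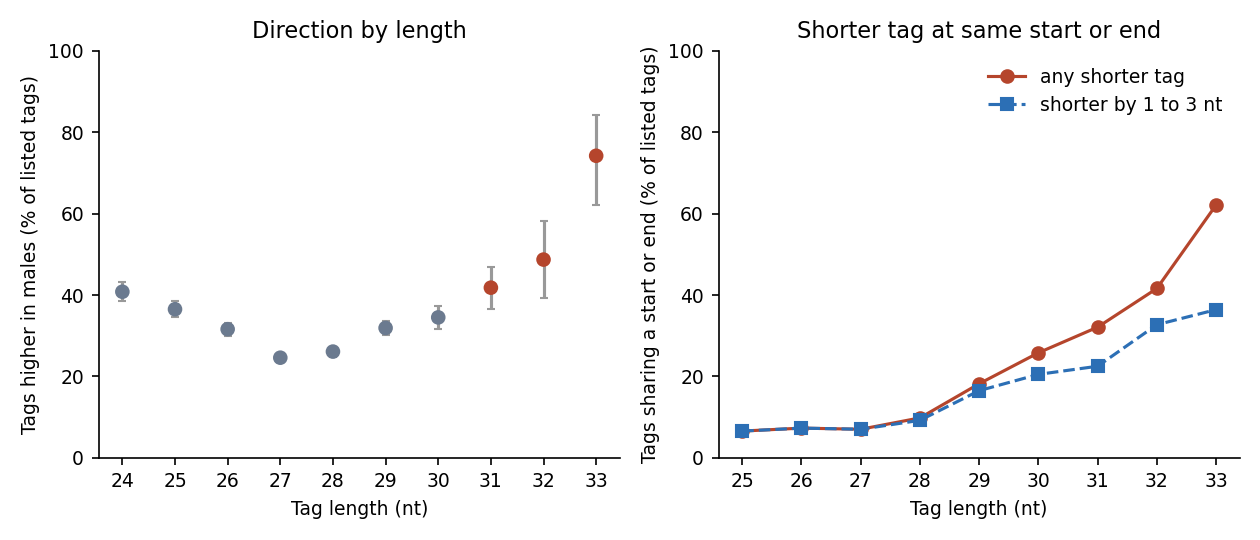
Left, the percent of listed nuclear tags higher in males (y axis) by tag length in nt (x axis), with 95% Clopper-Pearson intervals as bars and the long tags in red. Right, the percent of listed nuclear tags that share a start or end with a shorter listed tag (y axis) by length, for any shorter tag and for one shorter by 1 to 3 nt. The left panel is lowest at 27 nt (24.6%) and highest at 33 nt (74.2%), and the right panel reaches 62.1% at 33 nt.

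The most abundant long tags were higher in females. The 31-nt tag t00002988 at NW_021838153.1 168066301 to 168066331 had 1143 female and 399 male counts, a TPM of 427 and 194, and was 2.20-fold (1.97 to 2.48) higher in females. Next was the 33-nt tag t00004017 at NW_021837045.1 125969329 to 125969361, with 855 and 274 counts, 2.40-fold (2.09 to 2.76) higher in females. The 31-nt tag at NW_021838787.1 525666 to 525696 had 466 and 90 counts and was 3.98-fold (3.17 to 5.05) higher. These 3 lay in different settings, since the first and the third were in regions of 12 and 11 tags, and the second had 3 other listed tags within 10 kb, all in 1 overlapping run.

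Further down the female-higher order, the 31-nt tag at NW_021837723.1 756655 to 756685 had 203 female and 19 male counts, 8.22-fold (5.13 to 13.9) higher in females. It had no other listed tag within 10 kb and was the most counted of the 228 long tags that overlapped no listed tag. The 31-nt tags at NW_021837600.1 49341991 and NW_021838599.1 5469220, with 148 and 127 female counts, were 2.37-fold (1.70 to 3.36) and 2.38-fold (1.66 to 3.48) higher. Of these 6 leading female-higher tags, 5 had 31 nt, as did 212 of all 287 female-higher long tags and 364 of all 543 long tags.

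Among male-higher long tags, the 33-nt tag t00010084 at NW_021838576.1 50028138 to 50028170 had the highest summed TPM, with 304 male and 114 female counts, 3.47-fold (2.79 to 4.34) above females. The 32-nt tag t00010827 at NW_021837045.1 35722 to 35753 had 253 and 135 counts, a ratio of 2.44 (1.97 to 3.02). A pair of tags that end on the same base of NW_021837267.1, 31 nt from 27236464 and 32 nt from 27236463, had 275 and 211 male counts against 34 and 38 in females. Their ratios were 10.5 (7.34 to 15.5) and 7.22 (5.09 to 10.5). The 32-nt tag at NW_021839020.1 67138177 had 188 male and 38 female counts, a ratio of 6.43 (4.52 to 9.37). The 33-nt tag at NW_021838153.1 167913382 had 155 and 100 counts, and its ratio of 2.01 (1.56 to 2.62) lay at the edge of the list and turned to females with RLE factors. Of these 6 leading male-higher tags, 5 had 32 or 33 nt, but the 6 are few and include the pair that shares an end. Among all 256 male-higher long tags, 152 had 31 nt, 55 had 32 nt and 49 had 33 nt.

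The largest differences came from tags almost without counts in 1 sex. The 32-nt tag at NW_021837156.1 57227850 to 57227881 had 188 male and 2 female counts, a 122-fold difference with an interval from 33.3 to 1016. The 31-nt tag from the same start was the most counted of those listed in males alone, with 68 counts. On NW_021838602.1, the 31-nt tag from 280001 had 50 male and 2 female counts, 32.5-fold (8.54 to 276) in favour of males, and on NW_021838798.1 the 31-nt tag from 2995119 had 82 and 4, 26.6-fold higher, both on few female counts. Among tags listed in males alone, the next were the 32-nt tag at NW_021837267.1 27236174 with 24 counts and the 33-nt tag at 27238074 of the same scaffold with 21.

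On the female side, differences among tags counted in both sexes were smaller. The largest was at NW_021839191.1 24702 to 24732, with 36 female and 2 male counts, 13.9-fold (3.57 to 119) higher in females. The 32-nt tag at NW_021837822.1 27712061 had 47 and 3 counts, 12.1-fold (3.88 to 60.6) higher, and the 31-nt tag at NW_021837045.1 137133176 had 23 and 2, 8.85-fold (2.19 to 77.4) higher. None of these 3 overlapped another listed tag. The leading tag listed in females alone was the 31-nt one at NW_021837226.1 47873 to 47903, with 70 counts, followed by NW_021838543.1 4862560 with 38 and NW_021837267.1 49866179 with 25. Few tags of this kind were well counted, as 5 of the 228 listed in females alone and 4 of the 129 listed in males alone had 20 or more counts.

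Of the 543 long tags, 205 (37.8%) shared their exact start or end with a shorter listed tag. A shared start was found for 128, a shared end for 134, and both for 57. Another 110 (20.3%) overlapped a listed tag without sharing a coordinate with a shorter one, and 228 (42.0%) overlapped none. Among nuclear tags of 24 to 30 nt, 68.0% overlapped none. The share with a shorter tag at the same start or end was 32.1% at 31 nt, 41.6% at 32 nt and 62.1% at 33 nt, against 25.8% at 30 nt and 7.02% at 27 nt. A long tag can meet more shorter lengths than a short one can. Counting only tags shorter by 1 to 3 nt, which every length from 27 nt on can meet, the share was 7.02% at 27 nt, 20.5% at 30 nt, 22.5% at 31 nt, 32.7% at 32 nt and 36.4% at 33 nt. Without the region on NW_021837267.1, 176 of 510 long tags (34.5%) shared a start or end.

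Long tags in such stacks and long tags on their own differed in direction and level. Of the 205 with a shorter tag at the same start or end, 131 (63.9%, 56.9 to 70.5) were male-higher, and their summed TPM was 2801 in males and 1812 in females. Of the 228 that overlapped no listed tag, 75 (32.9%, 26.8 to 39.4) were male-higher, near the 31.7% of all listed tags. Their sum was 538 in males and 751 in females. The 110 that overlapped at other offsets stood between, with 50 male-higher (45.5%). Viewed from the other side, 51.2% of male-higher and 25.8% of female-higher long tags shared a start or end with a shorter one. Leaving out the NW_021837267.1 region, the male-higher figure was 45.7%, and 102 of the 176 stacked tags left were male-higher. Of those 176, 13 lay at NW_021838798.1 2994086, 10 at NW_021839020.1 67138175 and 5 at 25193088 of the same scaffold, all male-higher. Female-higher ones were grouped too, with 9 at NW_021837600.1 41735615 and 6 at NW_021837226.1 36935. The direction of the stacked tags thus rested in part on a few places. Depth moved with this split, since the median sum of counts was 15 in the stacked tags and 8 in those without overlap, and its part in the difference was not tested.

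A long tag and the shorter tag at its start or end nearly always had the same direction. The 205 long tags formed 564 such pairs, of which 525 (93.1%) had one direction and 39 had opposite ones. For pairs within 24 to 30 nt the figure was 89.6% of 2815. A tag can enter several pairs, so the pairs are not independent and large stacks weigh most in the pair counts given here. Pairs of male-higher long tags shared direction in 397 of 413 cases, and pairs of female-higher ones in 128 of 151. The longer tag had more counts in 195 of 564 pairs (34.6%), beside 44.7% of pairs whose longer tag has 30 nt and 50.1% of those whose longer tag has 29 nt. Against its most counted shorter partner, the long tag had a median of 54.5% of the counts when they shared a start and 38.8% when they shared an end. Pooled over shared starts, long tags made up 25.7% (24.9 to 26.5) of the female and 34.6% (33.7 to 35.4) of the male counts of long and shorter tags together. Over shared ends the order was the other way, with 22.7% (22.0 to 23.4) in females and 19.0% (18.5 to 19.5) in males. Both orders rested on 1 coordinate each. Without the start at NW_021837226.1 47873 the long share was 43.4% (42.2 to 44.6) in females and 35.0% (34.1 to 35.9) in males. Without the end at NW_021839020.1 25193130 it was 26.5% (25.7 to 27.4) and 28.7% (27.9 to 29.4).

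The most abundant long tag was one of the exceptions. The tag at NW_021838153.1 168066301 to 168066331 was 2.20-fold higher in females, while the 30-nt tag that started 1 base later and ended on the same base had 173 male and 109 female counts and was 2.06-fold (1.61 to 2.65) higher in males. With RLE factors that 30-nt tag turned to females. The 2 tags differ by 1 base at one end and their intervals lay on opposite sides of 1. For the 33-nt tag at NW_021837045.1 125969329, the 32-nt tag from the same start had 29 female and 6 male counts and was likewise female-higher, 3.72-fold (1.52 to 11.0). Here the long form held most counts of the pair. At NW_021838787.1 525666 there were 2 shorter partners. The 27-nt tag with the same end was commoner than the long tag, with 613 female and 210 male counts, and was 2.25-fold (1.92 to 2.64) higher in females. The 27-nt tag with the same start was rarer, with 25 female and 9 male counts.

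Other leading pairs were of one direction. The 33-nt tag at NW_021838576.1 50028138 shared its start with a 25-nt tag of 169 male and 97 female counts, with ratios of 3.47 (2.79 to 4.34) for the long and 2.26 (1.75 to 2.94) for the short form. At NW_021837045.1 35722 the 32-nt tag shared its end with tags of 31 and 29 nt, whose ratios were 2.11 (1.30 to 3.47) and 3.90 (1.18 to 16.6). The 31-nt form turned to females with RLE factors. At NW_021837156.1 57227850 the 32-nt tag was the longest and most counted of 5 tags from 1 start, with 188 male counts beside 68, 94, 112 and 20 for those of 31, 30, 29 and 27 nt. Female counts over all 5 were 4.

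At 3 coordinates, which were chosen after their values were seen, listed tags of every length from 24 to 33 nt shared 1 start or 1 end. At NW_021837226.1 start 47873 all 10 tags were female-higher, with 4991 female and 136 male counts. The 26-nt form dominated with 2314 female counts, the 30-nt form had 693, and the forms of 31, 32 and 33 nt had 70, 22 and 10. These 3 were listed at 0 in males and held 2.04% of the female counts. With 136 male counts in all at this start, the listed zeros do not show that these forms are absent in males. At NW_021837267.1 end 27236494 all 10 were male-higher, with 2648 male and 475 female counts. The 3 long forms held 19.9% of the male and 16.2% of the female counts. At NW_021839020.1 end 67138208 all 10 were again male-higher, with 1758 and 576 counts, and the long forms held 15.4% and 10.2%. In all, 25 starts or ends held a long tag among 5 or more listed tags, and in 18 of them every tag was male-higher, in 5 every tag female-higher. These are not separate places, since several lie in 1 stack and share tags. On NW_021839020.1 they include the starts 67138177 and 67138178 and the ends 67138206, 67138207, 67138208 and 67138209. Starts or ends without a long tag were not counted in this way.

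The largest run of overlapping long tags, 10 tags within 48 bases from NW_021839020.1 67138175, was male-higher throughout, with 522 male and 119 female counts, a ratio of 5.70 (4.66 to 7.02). Its long forms that started at 67138177 had 50, 188 and 129 male counts at 31, 32 and 33 nt, against 18, 38 and 25 in females. Among the long tags that started 1 base before or after, the highest count was that of the 33-nt tag from 67138176, with 68 male and 18 female counts. Of the tags from the start 67138177, 76.1% of the male and 75.0% of the female counts belonged to the long forms, and the 32-nt form had the most counts in both sexes. A last tag of the run, 33 nt from 67138190, had 6 male counts and was listed at 0 in females.

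The run of 9 tags in 37 bases at NW_021837267.1 27236462 was also male-higher throughout, at 682 male and 102 female counts, a ratio of 8.69 (7.05 to 10.8). Its tags ended on 3 different bases and started on 7. From the lowest start on, its tags had male counts of 40, 211, 275, 45, 18, 17, 42, 25 and 9. Female counts in the same order were 5, 38, 34, 10, 3, 0, 4, 8 and 0, all low. The run of 8 at NW_021838153.1 167913361 was less one-sided, with 357 male and 204 female counts and a ratio of 2.27 (1.91 to 2.71). Of its 8 tags 7 were male-higher. The exception was the 31-nt tag from 167913361, with 7 female counts and a listed 0 in males. Its 33-nt tag from 167913366 had 6 male counts and a listed 0 in females. Its other tags had male counts between 14 and 155 and female counts between 5 and 100.

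**Figure D3:**
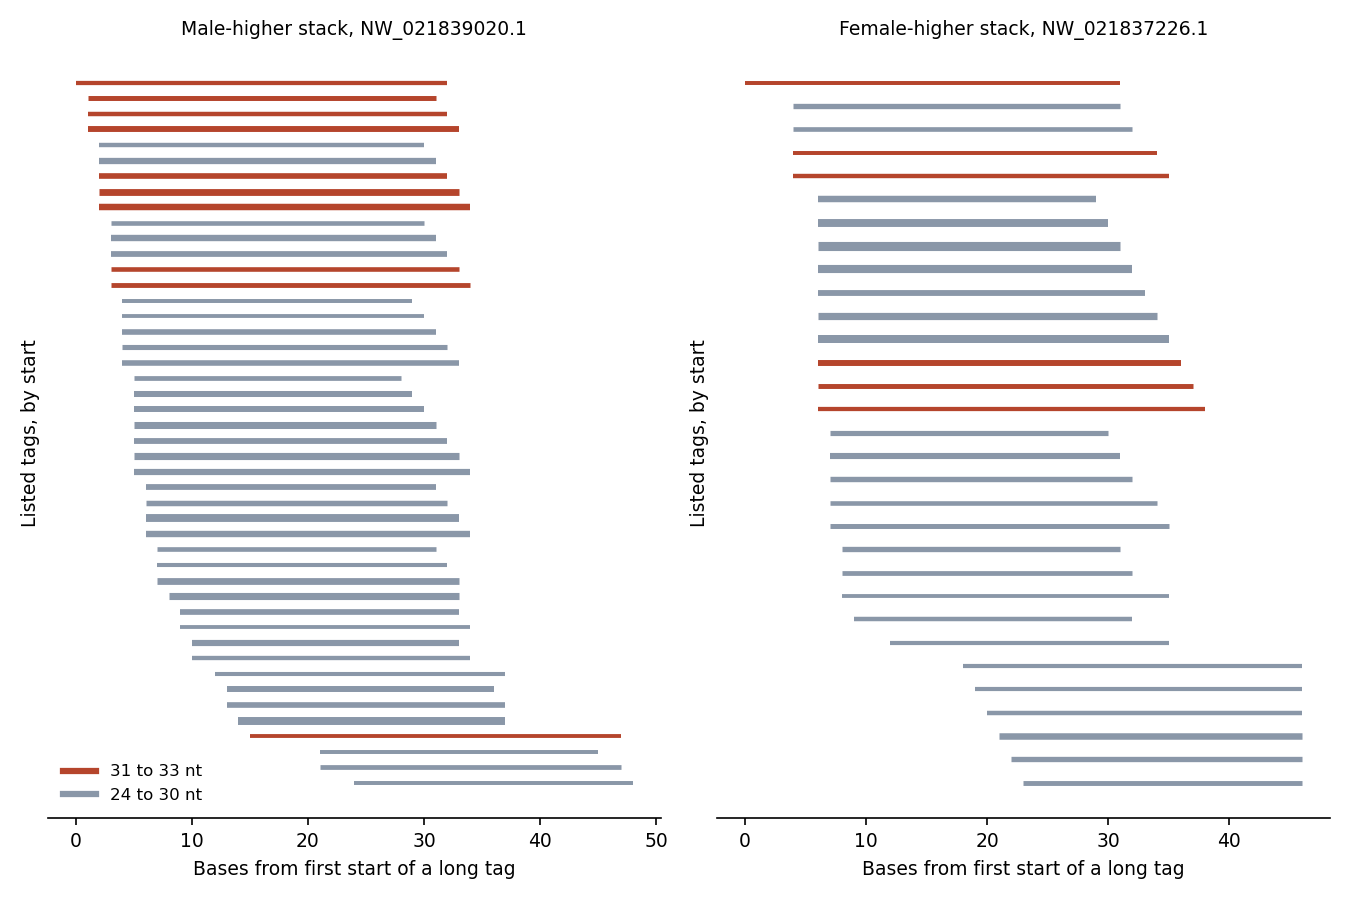
Listed tags that overlap the run of long tags on NW_021839020.1 (left) and on NW_021837226.1 (right), 1 line per tag from its first to its last base, with the distance in bases from the first start of a long tag on the x axis and the tags ordered by start on the y axis, which has no unit. Line width grows with the log of the male count on the left and the female count on the right, and long tags are red. On the left many tags share an end, and on the right 10 tags of 24 to 33 nt share a start.

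Long tags were found on 101 of the 685 nuclear sequences with listed tags, and 62 of these had 1 long tag. NW_021838153.1 carried 49, NW_021837267.1 43, NW_021837045.1 42, NW_021838798.1 33, NW_021837156.1 30, and NW_021837489.1 and NW_021838576.1 26 each. The first 6 of these held 41.1% of the long tags and 32.7% of all listed nuclear tags. Direction differed among them. On NW_021838153.1, 38 of 49 were male-higher, but the most abundant female-higher tag lies there too, and the ratio of sums was 1.06 (0.985 to 1.14). On NW_021837267.1, 34 of 43 were male-higher, with a ratio of 6.75 (5.89 to 7.77), and on NW_021838798.1 24 of 33, with 3.45 (2.92 to 4.10). A single region of NW_021837267.1, at 27236171, held 33 of those 34 tags and 1286 of the 1294 male counts. All 9 female-higher long tags of that scaffold lay outside the region. On NW_021837045.1, 28 of 42 were female-higher, near the 68.3% over all listed tags, and the ratio was 0.826 (0.760 to 0.898). That sum rested heavily on the tag at 125969329, with 855 of the 1439 female and 274 of the 915 male counts.

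Listed tags at most 10 kb apart form a region if there are 5 or more. Regions held 378 long tags (69.6%), against 49.9% of the nuclear tags of 24 to 30 nt. Inside regions 212 of 378 long tags (56.1%) were male-higher, with a ratio of summed TPM of 1.60 (1.54 to 1.66). Outside them 44 of 165 (26.7%, 20.1 to 34.1) were male-higher, near the 31.7% over all listed tags, with a ratio of 0.588 (0.547 to 0.631). The 74 long tags with no other listed tag within 10 kb were 58 female-higher and 16 male-higher, at a ratio of 0.427 (0.371 to 0.491). The lean to males was thus seen inside regions, and it turned to females for the summed level with RLE factors. The region on NW_021837267.1 gave 33 of the 212 male-higher tags and 1286 of the 6801 male counts inside regions. The inside share without it was not worked out, nor were the shares of shorter tags inside and outside regions. Where the other tags of a region had a majority direction, 283 of 370 long tags (76.5%) shared it. The same measure for tags of 24 to 30 nt was 70.8%. Long tags in male-majority regions followed it in 136 of 150 cases and those in female-majority regions in 147 of 220.

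The region with most long tags was at NW_021837267.1 27236171 to 27243916, where 33 of 268 tags had 31 to 33 nt and all 33 were male-higher. Their 1286 male and 169 female counts gave a ratio of 9.89 (8.42 to 11.7), above the 7.79 (7.37 to 8.23) of the 235 shorter tags there, and 29 of the 33 shared a start or end with a shorter tag. At NW_021838798.1 2994086 to 3000357, all 14 long tags were male-higher with a ratio of 15.1 (10.3 to 22.8), beside 9.93 (8.99 to 11.0) for shorter tags. At NW_021838153.1 167912688 to 167915817, 12 of 64 tags (18.8%) were long and 10 of them male-higher, while the shorter tags there were 28 of 52 male-higher. The ratios were 2.17 (1.88 to 2.51) and 1.30 (1.18 to 1.42), and both turned to females with RLE factors, the second also with TMM factors.

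In the region at NW_021838599.1 5379067 to 5502690, 10 of 12 long tags were female-higher. They were 2.89-fold (2.25 to 3.76) higher in females in sum, and the shorter tags 1.93-fold (1.84 to 2.03). The other regions with most long tags had few stacked ones. At NW_021837489.1 2319772 to 2363743 there were 21 long tags, 13 female-higher, with a ratio of 0.909 (0.703 to 1.17) where shorter tags had 1.23 (1.18 to 1.29), and 5 of the 21 shared a start or end with a shorter tag. At NW_021837998.1 371515 to 474486, 8 of 12 were female-higher, near the 68.3% over all listed tags, and 1 of 12 shared a coordinate. The ratio of sums there was 1.19 (0.902 to 1.56), beside 0.986 (0.938 to 1.04) for shorter tags. One region, at NW_021838153.1 168144428 to 168152302, had as many long as shorter tags, 3 of 6, all 3 male-higher with 39 male and 8 female counts.

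Across the 20 regions with 5 or more long tags, these were all male-higher in 5, all female-higher in 2 and of both directions in 13. Both sums could be compared in 19. In 16 of them the sum of the long tags and the sum of the shorter tags leaned to the same sex, and in 14 of those 16 the ratio of the long tags lay farther from 1. With TMM factors these counts were 16 and 13, and with RLE factors 15 and 11. The long sums held fewer tags than the shorter ones, and every listed tag is at least 2-fold apart. A sum of few such tags can lie farther from 1 for that reason alone. No equally small set of shorter tags was compared, so the 14 of 16 does not show a stronger sex difference of long tags. Whatever the scaling, the male over female ratio of the long tags was above that of the shorter tags in 13 regions and below it in 6. The intervals did not overlap in 9 of the 19. The widest of these gaps was at NW_021837156.1 57184704 to 57269974, where 9 long tags had a ratio of 7.41 (5.49 to 10.2) and 274 shorter ones 1.44 (1.40 to 1.49). It rested on the tags from 57227850, which held 256 of the 291 male counts of long tags in the region. At NW_021837226.1 36935 to 47913, all 6 long tags were listed in females alone, with 128 counts, where shorter tags had 5873 female and 182 male counts. The region at NW_021837156.1 was singled out after its values were seen.

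**Figure D4:**
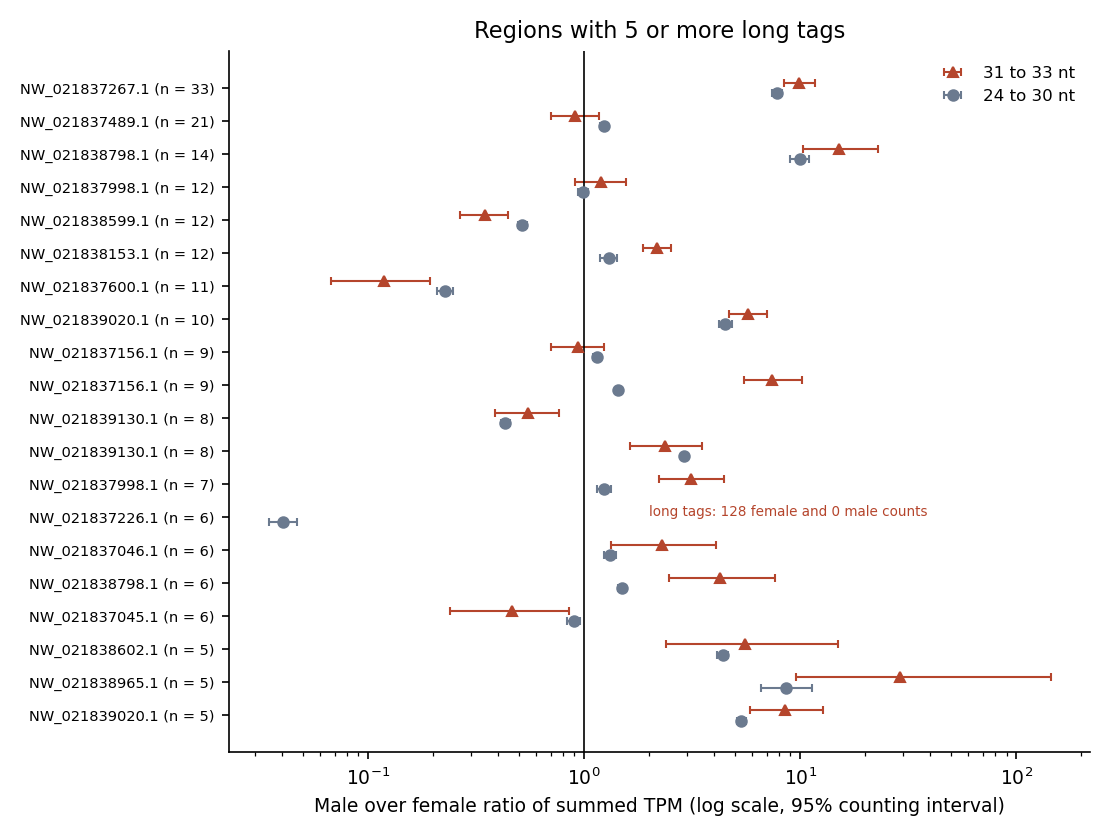
Male over female ratio of summed TPM (x axis, log scale) for the long tags (red triangles) and the tags of 24 to 30 nt (grey circles) of each of the 20 regions with 5 or more long tags, with 95% counting intervals as bars and the number of long tags after each sequence name on the y axis. The triangle lies farther from the line at 1 than the circle in 14 of the 16 regions where both lean to the same sex, and the region on NW_021837226.1 has no triangle because its long tags have 128 female and 0 male counts. Each triangle sums fewer tags than its circle, and no equally small set of shorter tags was compared.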

How the data were processed

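The deposited table gives a position, 1 count column, 1 TPM column per sex and 1 log2 column for each tag. Trimmomatic 0.30 is named per the submitters' processing notes. The aligner, genome build, filter of the list and the way 3 libraries became 1 column are not stated in the sources at hand. The deposited counts were whole numbers that had not been normalised. The authors deposited TPM values that equalled the count over a constant total per column, with a count of 0 written as 0.01. The log2 values the authors deposited equalled the log2 of male over female TPM, the smallest absolute value being 1.00. Totals were recovered from the ratio of TPM to count. Where a count is quoted from these columns it is the authors' value.

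Ratios of counts have exact conditional intervals and shares exact Clopper-Pearson 95% intervals (SciPy 1.17.1, Python 3.11.15). PCR reads lacking molecular identifiers are not independent, so these cover counting error only. The planned edgeR quasi-likelihood test could not be run with 1 column per sex. TMM and RLE factors came from edgeR 4.0.16 in R 4.3.3, from a list without unchanged tags. Shared starts and ends were exact positions. The search for shared starts and ends was tested on planted positions. The intervals were tested on simulated counts with counting error alone and without the filter of the list. That check cannot show how well they cover the listed counts.

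Tags named were the 6 most abundant per direction, the 3 with most counts per direction listed in 1 sex alone, the 3 of largest fold in each direction, given 20 or more counts over both sexes, the members of the 3 largest overlapping runs, and the 4 with most counts per kind of shared coordinate. Scaffolds named were the 6 with most long tags and regions the 5 with most, with ties kept. The set, rules and lists were chosen with earlier results of these data known. Strand, tag sequence and gene annotation were not used here.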

Additional observations from a re-analysis of the deposited data

How the results depend on the processing

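No paired analysis was possible because the table has 1 count column per sex, and for the same reason no replicate could be left out. The ratio of summed TPM was 1.29 and turned to females with TMM (0.964) and RLE (0.570) factors. It was 1.20 scaled by the listed tags alone, 1.41 with at least 20 counts, 1.43 without the 10 most abundant tags, 1.82 at 32 to 33 nt, 1.20 at 30 to 33 nt and 1.34 without NW_021838153.1. Chosen after seeing the data, leaving out the region with most long tags gave 1.10 and leaving out the 2 most abundant tags 1.57. The male-higher share of 47.1% stayed within its interval with RLE and without that scaffold or that region. TMM and a listed 0 taken as 1 could not move it, since every listed tag is at least 2-fold apart and holds at least 6 counts. It moved to 66.7% with at least 20 counts, 58.1% at 32 to 33 nt, 38.8% at 30 to 33 nt, 41.8% with overlapping long tags merged and 42.3% without the 3 regions with most. The share with a shorter tag at the same start or end was 37.8%. It was 42.5% when 1 base of tolerance was allowed, 26.3% for tags shorter by at most 3 nt, 47.8% with at least 20 counts in both tags, 49.2% at 32 to 33 nt, 30.3% with long tags merged and 33.3% without the 3 regions. The male minus female difference in the long share of counts, 8.91 percentage points at shared starts and -3.68 at shared ends, reversed to -8.38 and 2.16 without the coordinate with most counts, a check added after seeing the data, and the cause was not tested. Low counts limit most single tags, since the median sum of both counts was 9.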

Other observations

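The mitochondrial sequence, left out above, also had long tags. There were 32 of 31 to 33 nt, all male-higher, with 409 male and 32 female counts, a ratio of 16.6 (11.6 to 24.6). Of these, 24 were listed in males alone and the best counted had a sum of 48, so none was near the level of the leading nuclear tags. Among the 543 nuclear long tags the male-higher share was 47.1%. Mitochondrial tags as a whole were nearly all male-higher, so the direction was not particular to the long ones. Male-higher tags numbered 7226 over all listed tags and 6760 over the nuclear ones, while female-higher tags numbered 15547 and 15544.

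Listed tags that began or ended directly beside a long nuclear tag, without a gap, were found in 41 cases, against 27, 25, 31, 30 and 18 at gaps of 1 to 5 bases and 26 at an overlap of 1 base. An overlap of 10 bases between ends, the distance left by the ping-pong cycle of piRNAs, was found 26 times, against 10, 18, 25 and 26 times at 8, 9, 11 and 12 bases. Of the offsets counted, from a gap of 5 to an overlap of 15 bases, the last had the highest number, 46. Stacked tags count in several cases, strand was not used, and no test was run.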
